A study of Mus musculus with 19 samples.

Results

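The genes described here are 10 secreted or membrane antagonists and response genes of the Wnt pathway: Sfrp1, Sfrp2, Frzb, Wif1, Dkk1, Dkk3, Kremen1, Sostdc1, Axin2 and Lef1. They were taken by name from the 18193 genes that the arrays measure with a probe set, several short probes that read 1 transcript together, naming only that gene, and each of the 10 had at least 1 such set. By RefSeq (GRCm38.p6), Sfrp2 and Lef1 lie on chromosome 3, Axin2 and Kremen1 on chromosome 11, Frzb on 2, Dkk3 on 7, Sfrp1 on 8, Wif1 on 10, Sostdc1 on 12 and Dkk1 on 19. All RNA came from wild-type mouse embryos of the ICR strain, dated from the vaginal plug as E0.5, with no allele or agent applied to any group. The lens was dissected on 3 successive days, E10.5, E11.5 or E12.5 (3 arrays each), and set against 4 arrays of whole embryo staged within E10.5 to E12.5. Tooth germ was taken at E13.5 (3 arrays) and set against 3 arrays of whole embryo from E11.5 to E13.5. The series was made to find genes enriched in lens or tooth over the body, as an aid to ranking candidate cataract genes. The labels give each body group only as a range of days and do not say whether arrays of a group came from separate embryos or pools, so p-values measure only the spread between these arrays.

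Wnt proteins are secreted signals that bind Frizzled receptors together with the co-receptors Lrp5 and Lrp6, which stabilises beta-catenin and lets it act with DNA-binding partners of the TCF/LEF family. Secreted antagonists work at separate points: the Sfrp family, Frzb and Wif1 bind the Wnt proteins, while Dkk1, with Kremen1 as its partner on the cell surface, and Sostdc1 act at the co-receptors. Axin2 is switched on by the pathway and feeds back to damp it. Beta-catenin signalling is known to be kept low in the ectoderm that forms the lens, and it is needed for the tooth bud to go on growing.

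Levels below are log2 of the deposited signal, and differences are log2 differences of group means with the standard error (SE) of a model fitted over all 19 arrays. A gene was called higher or lower at a Benjamini-Hochberg adjusted p under 0.05 over 13320 tested genes, which include all 10. Where a gene had several probe sets, the set with the highest mean level was used and the others are given beside it. Precision is limited by the number of arrays. The 15 probe sets for Bacillus genes were assumed to have nothing to bind here and were used to set a background, the no-target level. Their 95th percentile was 5.02, and a level at or below it is treated here as not above background.

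The labelled tissues carried their defining markers. All 5 lens markers were called higher in lens than in body at each stage, and their summed level was 13.09 to 14.97 in lens against 7.61 to 8.01 in the matched bodies. In tooth germ all 5 dental mesenchyme markers and 3 of 4 dental epithelium markers were called higher than in body. The third E10.5 lens array stood apart with a summed lens marker level of 14.51 against 13.12 and 13.09 on the other E10.5 arrays, so E10.5 results that depend on it are given with and without it. The lens series also splits by its bacterial hybridisation controls into 6 arrays of high and 7 of low signal; the high set holds 2 arrays of E10.5, 1 of E11.5, 1 of E12.5 and 2 of body. The 3′ minus 5′ difference of the Gapdh control probe sets was -0.10 to 0.05 in the lens series and 2.82 to 4.08 in the tooth series. Each tissue is therefore set against the bodies of its own series, and levels of the 2 series meet only in a comparison of the body groups and in the correlations over all arrays.

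In lens, 5 of the 10 genes were called higher and 4 lower than in body at E10.5, where 32.6% of all tested genes were called (13.5% higher and 19.1% lower). At E11.5 the counts were 4 higher and 4 lower, with 36.9% of all genes called (14.7% and 22.3%). At E12.5 they were again 4 and 4, with 43.3% called (16.6% and 26.7%). No overlap between lens and body was seen for 8, 8 and 9 members in order of stage, against 40.4%, 38.3% and 49.1% of all genes. The 3 comparisons share the same 4 body arrays. Sfrp1, Sfrp2 and Dkk3 were higher and Frzb, Wif1 and Lef1 lower at every stage. Markers of other cell types were also higher in lens. All 3 tested of 6 pigment cell markers were called higher at each stage (summed level 8.36 to 9.84 in lens and 7.65 to 7.86 in body), as were 5, 4 and 3 of 6 macrophage markers in order of stage (10.08 to 10.92 and 9.69 to 10.17). Of 5 tested neural retina markers 2 were called higher at each stage, and 3, 3 and 2 lower in order of stage. Of 6 surface ectoderm markers 5 were called higher at E10.5 and 0 at the later stages. The part of these cell types in the higher genes was not tested. The members' median difference at E12.5 was -0.18, against -0.05 over all genes, so the group as a whole did not move one way. In tooth germ 6 genes were called higher and 2 lower than in body, with 41.9% of all genes called (16.6% higher and 25.3% lower), and arrays did not overlap for 8 members and for 56.1% of all genes. These were Frzb, Wif1, Dkk3, Kremen1, Sostdc1 and Lef1 on the higher side and Sfrp1 and Axin2 on the lower side. In whole tissue RNA, fewer cells of a type and less RNA per cell cannot be told apart.

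**Figure D1:**
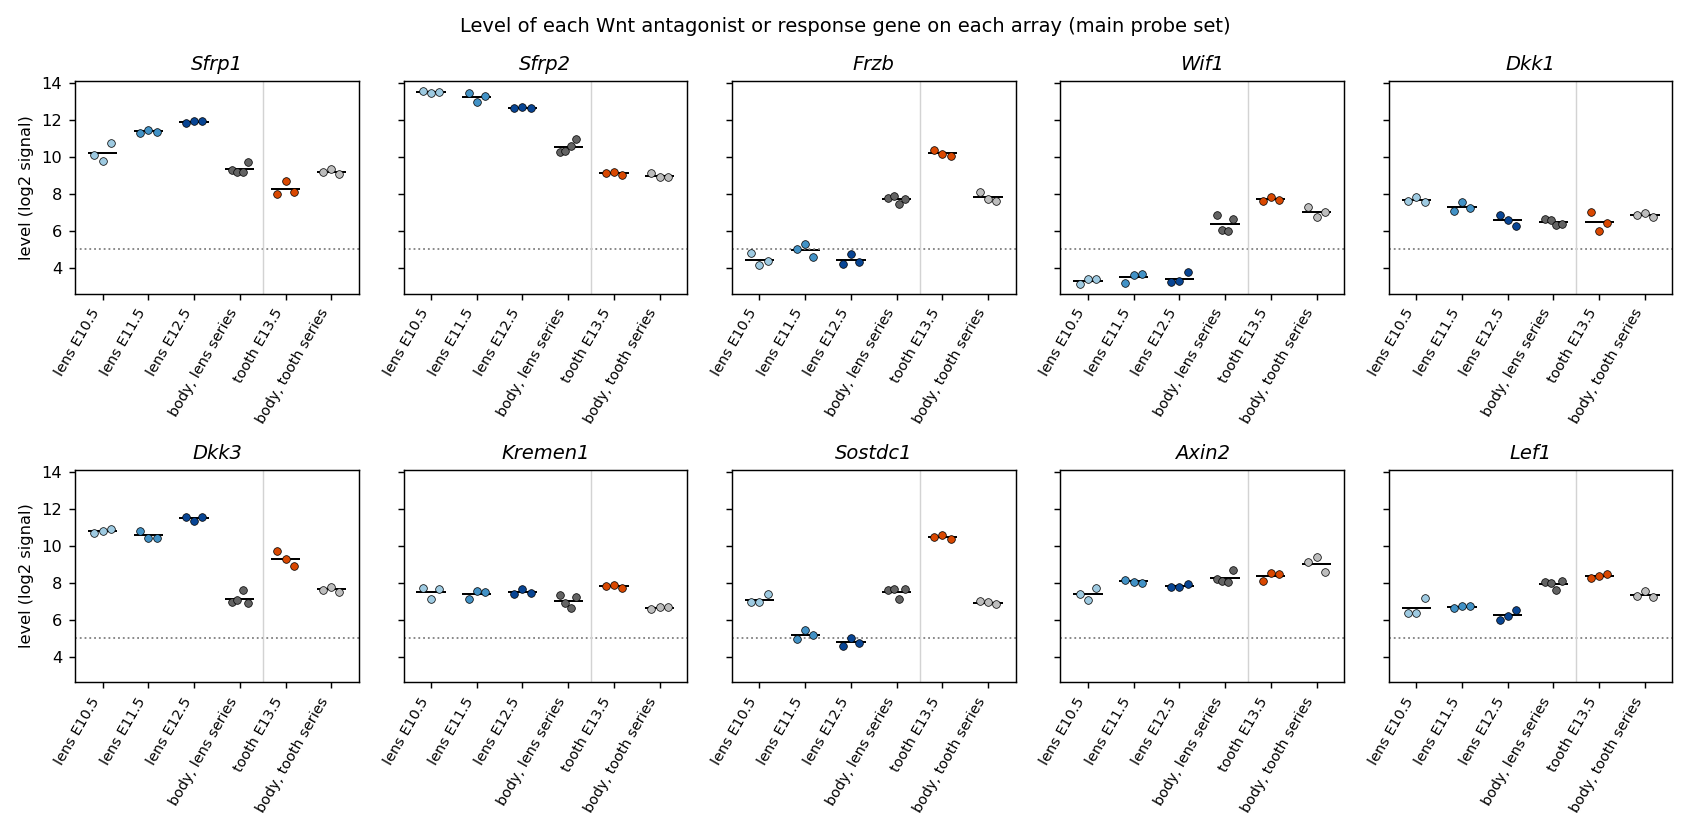
Level (log2 signal, vertical axis) of each of the 10 genes on each of the 19 arrays, with the group mean as a bar. The vertical line separates the lens series from the tooth series. The dotted line is the 95th percentile of probe sets assumed to have no target, 5.02. Frzb and Wif1 lie near or under the dotted line in lens and above it in body and tooth germ, while Sfrp2 and Dkk3 lie well above body in lens.

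Promoter sequence is shown for 4 of the genes, 3 that hold the letters TCF/LEF proteins are known to bind and Axin2, a response gene that does not hold them in this window. RefSeq windows (GRCm38.p6) of 300 bases, 250 before to 50 after an annotated start, were found for 6 of the 10 genes, and the bases before the start are printed. The letters CTTTGA and CTTTGT were searched on both strands, and matches are in capitals, so that a match on the opposite strand reads TCAAAG or ACAAAG. Dkk1 (chr19:30549497-30549746, minus strand) held 3 matches, beginning at -174, -117 and -98 from the start. The most downstream of 4 annotated Lef1 starts (chr3:131156044-131156293, plus strand) also held 3, and the other Lef1 windows held 0. Frzb (chr2:80447397-80447646, minus strand) held 1 and Axin2 (chr11:108920099-108920348, plus strand) held 0, as did the windows of Sfrp2 and Wif1. Of 32851 such windows over all genes, 31.2% held at least 1 match and 1.14% at least 3.
Dkk1: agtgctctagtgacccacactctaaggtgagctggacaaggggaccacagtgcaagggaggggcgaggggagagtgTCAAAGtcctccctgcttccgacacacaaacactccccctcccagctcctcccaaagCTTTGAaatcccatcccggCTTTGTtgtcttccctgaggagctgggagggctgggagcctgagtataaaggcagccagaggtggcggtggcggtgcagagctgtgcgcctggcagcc
Lef1: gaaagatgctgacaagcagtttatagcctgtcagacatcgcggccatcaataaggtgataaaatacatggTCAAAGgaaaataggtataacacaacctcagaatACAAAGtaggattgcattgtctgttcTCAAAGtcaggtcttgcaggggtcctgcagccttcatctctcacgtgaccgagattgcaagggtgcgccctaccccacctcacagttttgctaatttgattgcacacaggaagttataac
Frzb: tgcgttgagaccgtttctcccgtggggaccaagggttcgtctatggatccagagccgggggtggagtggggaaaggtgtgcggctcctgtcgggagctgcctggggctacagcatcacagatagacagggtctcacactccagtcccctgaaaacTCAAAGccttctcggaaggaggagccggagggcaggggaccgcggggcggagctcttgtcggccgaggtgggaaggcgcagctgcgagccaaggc
Axin2: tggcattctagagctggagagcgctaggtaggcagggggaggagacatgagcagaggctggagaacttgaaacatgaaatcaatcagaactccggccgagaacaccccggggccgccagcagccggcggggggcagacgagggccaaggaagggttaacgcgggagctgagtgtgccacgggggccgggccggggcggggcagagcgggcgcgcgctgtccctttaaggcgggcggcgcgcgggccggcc
A match is a description of the letters and does not show binding, and a window without a match says only that these letters are not in it.

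Sfrp1, a secreted Frizzled-related protein that binds Wnt proteins through a Frizzled-like domain, rose through the lens stages. Its level was 10.09, 9.77 and 10.75 at E10.5, 11.30, 11.497 and 11.39 a day later, and 11.83, 11.97 and 11.94 at E12.5, against 9.31, 9.19, 9.17 and 9.74 in body. No lens array overlapped the body arrays, and each lens stage lay wholly above the one before. The difference from body was 0.85 at E10.5 (SE 0.20, adjusted p = 0.00293), 2.04 at E11.5 (adjusted p = 1.46e-07) and 2.56 at E12.5 (adjusted p = 4.77e-09), the last a 5.90-fold excess. Without the third E10.5 array the first of these was 0.58 (adjusted p = 0.031). The rise from E10.5 to E11.5 was 1.19 (SE 0.22, adjusted p = 0.00304), and that from E10.5 to E12.5 was 1.71 (adjusted p = 1.21e-05). The rise to E11.5 was 1.36 among the high-control arrays (adjusted p = 0.0155) and 0.70 among the low-control arrays (adjusted p = 0.197), whose only E10.5 array is the third. From E11.5 to E12.5 the difference of 0.52 did not pass the test (adjusted p = 0.203). The other Sfrp1 sets also had higher means at E12.5: 11.44 to 11.91, 11.15 to 12.02, 8.57 to 9.16 and 10.56 to 11.07. Arrays of these stages overlapped only in the last of these sets.

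All 5 Sfrp1 probe sets were called higher in lens than in body at E11.5 and at E12.5, by 1.44 to 3.36 at the later stage. At E10.5 3 of the 5 were called, and the others gave 0.39 (adjusted p = 0.0543) and 0.64 (adjusted p = 0.215). In tooth germ the main set read 8.0, 8.72 and 8.12 against 9.20, 9.35 and 9.09 in body, with no overlap and a difference of -0.93 (SE 0.22, adjusted p = 0.00205). Only 1 of the other 4 sets was called lower in tooth germ (adjusted p = 0.00385); it was not above background there on any array and so was at least 2.15-fold lower than body. The remaining 3 gave -0.26, 0.05 and -0.04. The calls in tooth germ and in lens at E10.5 thus depended on the probe set, and those in lens at E11.5 and E12.5 did not.

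Sfrp2, a close relative with the same Wnt-binding fold, was also higher in lens but fell with stage. Its level was 13.60, 13.47 and 13.54 at E10.5, 13.49, 12.99 and 13.31 a day later, and 12.68, 12.70 and 12.67 at E12.5, against 10.29, 10.32, 10.63 and 10.99 in body. The lowest lens array was above the highest body array. The difference from body was 2.98 at E10.5 (SE 0.16, adjusted p = 1.1e-11), 2.71 at E11.5 (adjusted p = 4.7e-11) and 2.13 at E12.5 (adjusted p = 1.34e-09). From E10.5 to E12.5 Sfrp2 fell by 0.85 (SE 0.17, adjusted p = 0.000815), and the arrays of the 2 stages did not overlap. Within the low-control arrays the same fall was -0.86 (adjusted p = 0.0734). The step from E11.5 to E12.5 was -0.58 (adjusted p = 0.0427), a call lost in 10 of 18 alternative fits. One of these kept the replicate number as a block within the arrays of these stages (adjusted p = 0.0799). So Sfrp1 and Sfrp2 were both above body at every stage while their stage changes had opposite signs. In tooth germ Sfrp2 read 9.13, 9.20 and 9.06 against 9.15, 8.91 and 8.90 in body; these overlapped and the difference was 0.14, with an interval from -0.21 to 0.49 (adjusted p = 0.52).

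Frzb, also a Frizzled-related antagonist, had the reverse distribution. Its level in lens was 4.80, 4.15 and 4.36 at E10.5, 5.02, 5.31 and 4.59 a day later, and 4.20, 4.74 and 4.31 at E12.5, against 7.78, 7.91, 7.44 and 7.74 in body. All lens arrays but 1 at E11.5 were at or below the no-target level of 5.02, so the fold is a lower bound: Frzb was at least 6.48-fold lower in lens than in body at E10.5 and at E12.5, and at least 6.07-fold lower at E11.5. The measured difference at E12.5 was -3.30 (SE 0.19, adjusted p = 5.84e-11). In tooth germ Frzb read 10.39, 10.19 and 10.05 against 8.09, 7.76 and 7.61 in body, a difference of 2.39 (SE 0.21, adjusted p = 3.75e-08) with no overlap. A second Frzb set passed the filter on low values only through the 4 lens-series body arrays. Its lower level in lens is therefore no separate support. It read 3.71 to 4.83 in lens, not above background, and 6.55 to 7.09 in those bodies. In the tooth series that set read 4.85 to 5.15 in tooth germ and 3.97 to 4.53 in body, at or near background, so no fold is given.

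Wif1, an unrelated secreted protein that holds Wnt proteins through its WIF domain, was not above the no-target level on any lens array. It read 3.12, 3.39 and 3.39 at E10.5, 3.20, 3.63 and 3.66 a day later, and 3.22, 3.28 and 3.75 at E12.5, against 6.89, 6.03, 5.98 and 6.65 in body. It was at least 2.57-fold lower than body at each stage, with a measured difference of -2.97 at E12.5 (SE 0.21, adjusted p = 9.39e-10). In tooth germ the levels were 7.64, 7.84 and 7.66, above the 7.31, 6.74 and 7.01 of body on every array. That difference was 0.69 (SE 0.23, adjusted p = 0.0189), and it lost its call in 2 of 15 alternative fits.

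Markers of mesenchyme were lower in lens than in body, as Frzb, Wif1 and Lef1 were. Of 8 such markers 7 were called lower at E12.5, and their summed level was 12.38 to 12.73 in lens against 14.35 to 14.56 in body. Between lens stages 5 markers were called higher and 2 lower at E12.5 than at E10.5 (median 1.02). Frzb (-0.02) and Wif1 (0.11) were at background at both stages, so these values cannot show a change. Lef1 differed by -0.40 and was not called (adjusted p = 0.171). In tooth germ 3 of the 8 were called higher and 1 lower than in body, with a median of 0.22. The part of these markers in the differences from body was not tested. No Frzb or Wif1 change between lens stages was called.

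Dkk1, which blocks Lrp5 and Lrp6, was above body in the early lens and at the body level by E12.5. It read 7.65, 7.84 and 7.59 at E10.5, 7.07, 7.57 and 7.26 a day later, and 6.85, 6.61 and 6.26 at E12.5, against 6.65, 6.58, 6.35 and 6.39 in body. The E10.5 and E11.5 arrays lay above all body arrays and the E12.5 arrays overlapped them. The difference was 1.20 at E10.5 (SE 0.20, adjusted p = 8.15e-05), 0.81 at E11.5 (adjusted p = 0.00316) and 0.08 at E12.5 (interval -0.33 to 0.50, adjusted p = 0.773). Among the high-control arrays the E11.5 difference was 0.60 and missed the threshold (adjusted p = 0.0677). Dkk1 fell by 1.12 over the whole interval (SE 0.21, adjusted p = 0.000657), and by 0.73 in the last step (adjusted p = 0.0464). That call was lost in 11 of 18 alternative fits, among them the replicate block over all arrays (-0.73, adjusted p = 0.0572) and within the arrays of these stages (-0.73, adjusted p = 0.0838). Surface ectoderm markers took a similar course, with 5 of 6 called higher than body at E10.5 and 0 higher and 6 lower at E12.5, but 5 were already lower than body at E11.5, when Dkk1 was higher; their part was not tested. Tooth germ read 7.03, 5.97 and 6.42 and its body 6.84, 6.99 and 6.78, which overlapped (difference -0.40, adjusted p = 0.141). A second Dkk1 set passed the filter only through the 3 tooth-series body arrays. It read 5.57 to 5.75 there and 3.35 to 3.94 in tooth germ, not above background. That gap is no separate support, since the same bodies let the set pass. Lens and lens-series body were at or near background.

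Dkk3, a divergent member of the Dickkopf family, was far above body in lens at every stage. Its main set read 10.69, 10.79 and 10.93 at E10.5, 10.81, 10.44 and 10.44 a day later, and 11.56, 11.35 and 11.55 at E12.5, against 6.96, 7.08, 7.60 and 6.93 in body. No lens array came near the highest body array. The differences were 3.66, 3.42 and 4.35 (SE 0.18 each; adjusted p = 5.64e-12, 1.62e-11 and 4.67e-13), so that lens at E12.5 held 20.3-fold the body signal. Dkk3 rose by 0.92 from E11.5 to E12.5 (SE 0.19, adjusted p = 0.00635); within the high-control arrays, with 1 array at each of these stages, the rise was 0.75 (adjusted p = 0.209). The net rise from E10.5 was 0.68 (adjusted p = 0.0153), and 4 of 17 alternative fits lost that call. Tooth germ read 9.72, 9.29 and 8.93 against 7.63, 7.78 and 7.53 in body, a difference of 1.66 (SE 0.19, adjusted p = 1.61e-06).

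The second Dkk3 probe set gave the same differences within each series, 4.46 for lens at E12.5 and 1.81 for tooth germ. The sets disagreed between the series. The tooth-series bodies were 0.51 above the lens-series bodies by the main set (adjusted p = 0.0207) and -0.86 by the second (adjusted p = 0.000936), both called and of opposite sign. By the second set the tooth-series bodies read 6.68, 6.73 and 6.01 and the lens-series bodies 7.10 to 7.45.

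Kremen1, the transmembrane partner of Dkk1, differed little from body in lens. It read 7.70, 7.12 and 7.65 at E10.5, 7.10, 7.53 and 7.51 a day later, and 7.37, 7.68 and 7.46 at E12.5, against 7.33, 6.88, 6.64 and 7.26 in body. The lens and body ranges overlapped at E10.5 and E11.5. Differences were 0.47 (SE 0.18, adjusted p = 0.0478), 0.36 (adjusted p = 0.124) and 0.48 (adjusted p = 0.0342), and the calls at E10.5 and E12.5 were lost in 10 and 7 of 18 alternative fits. Without the third E10.5 array the first was 0.39 (adjusted p = 0.165). In tooth germ the levels of 7.83, 7.91 and 7.72 all lay above the 6.59, 6.70 and 6.67 of body, a difference of 1.17 (SE 0.19, adjusted p = 6.12e-05). A second Kremen1 set was called higher in lens at E10.5 (0.67, adjusted p = 0.00553) and gave 0.31 and 0.40 at the later stages, neither called. In the tooth series it was at background in body (4.55 to 4.77) and near it in tooth germ (4.94 to 5.17), and the third set did not pass the filter on low values.

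Sostdc1, a secreted antagonist of Wnt and BMP signalling known for restraining tooth number, was below body in the later lens and far above it in tooth germ. In lens it read 6.93, 6.94 and 7.38 at E10.5, 4.94, 5.43 and 5.15 a day later, and 4.56, 5.0 and 4.76 at E12.5, against 7.60, 7.68, 7.12 and 7.68 in body. At E10.5 lens and body overlapped, while no later lens array reached the lowest body array. The difference was -0.44 at E10.5 (SE 0.17, adjusted p = 0.0518), -2.35 at E11.5 (adjusted p = 1.1e-09) and -2.74 at E12.5 (adjusted p = 8.97e-11). Without the third E10.5 array the first was -0.58 (adjusted p = 0.0182). The second Sostdc1 set did not share this difference, with E10.5 means of 6.97 in lens and 6.96 in body. Its lens means of 5.01 at E11.5 and 4.64 at E12.5 were below body, as by the main set. All E12.5 arrays were below the no-target level, so Sostdc1 was at least 5.64-fold lower than body and at least 4.17-fold lower than at E10.5. The step from E10.5 to E11.5 was -1.91 (SE 0.18, adjusted p = 2.19e-06), with -1.99 among the high-control and -2.09 among the low-control arrays.

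The surface ectoderm markers moved with Sostdc1 in the lens. All 6 were called lower at E11.5 than at E10.5, and their summed level was 11.78 to 12.45 at E10.5, 9.37 to 9.78 at E11.5 and 7.82 to 8.02 at E12.5, against 10.51 to 10.77 in body. Their part in the Sostdc1 change was not tested. In tooth germ Sostdc1 read 10.48, 10.59 and 10.37 against 7.02, 6.93 and 6.83 in body, a gap with no overlap. The difference of 3.55 (SE 0.18, adjusted p = 1.85e-11) was an 11.7-fold excess, and the second Sostdc1 set gave 3.22. In tooth germ the same surface ectoderm markers summed to 12.92 to 13.21 against 11.19 to 11.33 in its body, and the dental epithelium markers to 11.45 to 11.85 against 9.67 to 9.96, which also moved with Sostdc1 and was not tested.

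**Figure D2:**
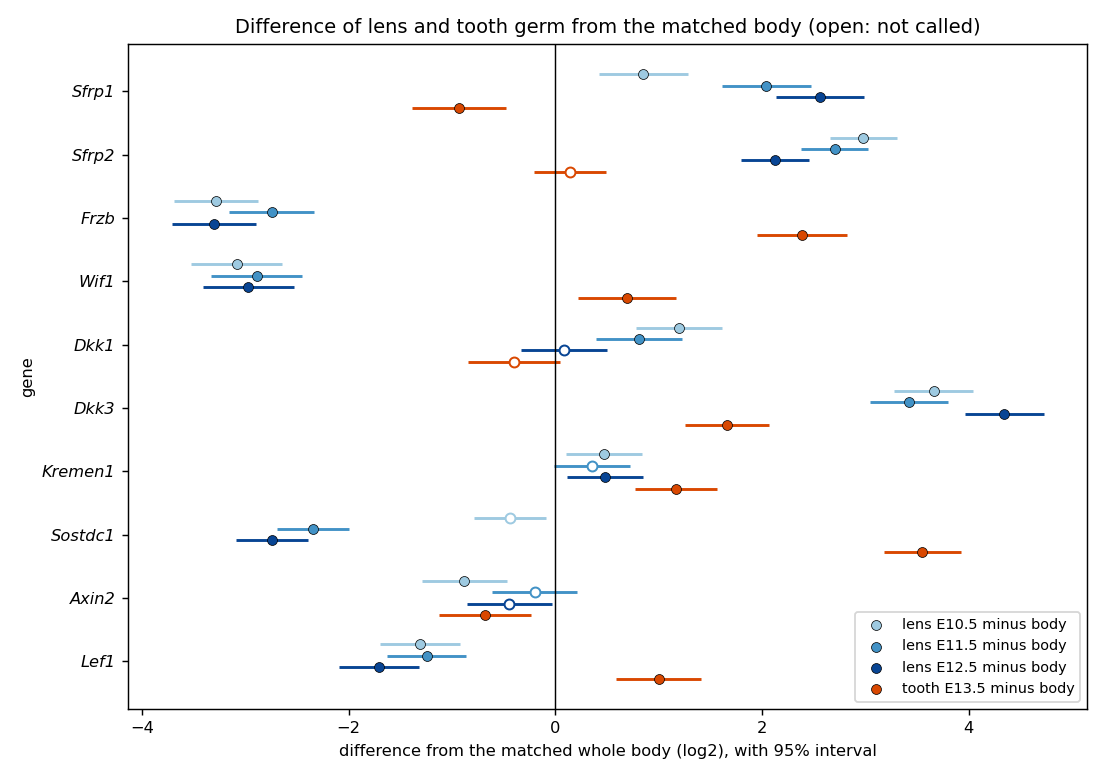
Difference of lens (blue, darker with stage) and tooth germ (orange) from the body of the same series on the log2 scale, with its 95% interval; filled points were called and open points were not. Frzb, Wif1, Sostdc1 and Lef1 lie left of 0 in lens at E12.5 and right of 0 in tooth germ, and Sfrp1 does the reverse.

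Axin2, a feedback inhibitor and a widely used readout of beta-catenin signalling, was below body in the earliest lens. It read 7.38, 7.06 and 7.74 at E10.5, 8.17, 8.03 and 8.01 a day later, and 7.76, 7.76 and 7.96 at E12.5, against 8.22, 8.12, 8.06 and 8.69 in body. The E10.5 and E12.5 arrays lay below all body arrays and the E11.5 arrays overlapped them. Differences were -0.88 at E10.5 (SE 0.20, adjusted p = 0.00162), -0.20 at E11.5 (interval -0.61 to 0.21, adjusted p = 0.465) and -0.44 at E12.5 (adjusted p = 0.0767). The E11.5 arrays lay above the E10.5 arrays without overlap, but the difference of 0.68 was not called (adjusted p = 0.0817). Without the third E10.5 array it was 0.85 (adjusted p = 0.0314). In tooth germ Axin2 read 8.08, 8.51 and 8.46 against 9.12, 9.40 and 8.59 in body, a difference of -0.68 (SE 0.21, adjusted p = 0.0139) that lost its call in 2 of 15 alternative fits. A second Axin2 set did not pass the filter on low values.

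Lef1, a DNA-binding partner of beta-catenin that the tooth needs to pass the bud stage, was lower in lens and higher in tooth germ. It read 6.37, 6.35 and 7.16 at E10.5, 6.62, 6.74 and 6.72 a day later, and 5.99, 6.18 and 6.53 at E12.5, against 8.06, 8.01, 7.62 and 8.07 in body. No lens array reached the lowest body array. Differences were -1.31 at E10.5 (SE 0.18, adjusted p = 1.21e-05), -1.25 at E11.5 (adjusted p = 2.15e-05) and -1.71 at E12.5 (adjusted p = 3e-07), and no stage change was called. Tooth germ read 8.25, 8.36 and 8.48 against 7.29, 7.54 and 7.25 in body, a difference of 1.00 (SE 0.20, adjusted p = 0.000441). The second Lef1 set passed the filter on low values through 5 arrays, the lens-series bodies and an E10.5 lens array. Its lower level in lens is therefore no separate support. It read 4.41 to 4.92 in lens at E12.5, not above background, and 5.86 to 6.79 in those bodies. It was below background on every array of the tooth series and gives no value there. The 2 response genes therefore differed from body in opposite directions in tooth germ by their main sets.

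Between lens stages few of these genes changed in a single step. The first step brought a rise of Sfrp1 and a fall of Sostdc1, 2 of 10, with 4.26% of all genes called (1.52% higher and 2.74% lower). In the step to E12.5 Dkk3 rose while Sfrp2 and Dkk1 fell, 3 of 10 against 6.46% of all genes (3.02% higher and 3.45% lower), a count that was 1 with the replicate block within these arrays and 1 without E11.5 array 3, E12.5 array 2 or E12.5 array 3 and 2 without any other array of these stages. Over both steps, E10.5 to E12.5, Sfrp1 and Dkk3 rose and Sfrp2, Dkk1 and Sostdc1 fell, 5 of 10 against 22.1% (8.91% higher and 13.2% lower). In that comparison the arrays of the 2 stages did not overlap for 6 of the 10 genes and for 38.3% of all tested genes, and in the single steps for 4 and 6 members against 17.5% and 19.1%. Frzb, Wif1, Kremen1, Axin2 and Lef1 were not called in any of the 3 stage comparisons of the main fit. Some alternative fits did call Axin2 from E10.5 to E11.5 (2 of 17) and Lef1 from E10.5 to E12.5 (2 of 17).

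The lens difference at E12.5 was also set directly against the tooth difference, each from its own bodies. This test called 3 genes in favour of lens and 5 in favour of tooth germ, with 39.6% of all genes called (19.2% and 20.4%). Sfrp1 (3.49, SE 0.30, adjusted p = 3.46e-08), Sfrp2 (1.99) and Dkk3 (2.68) were on the lens side. On the tooth side stood Sostdc1 (-6.30, SE 0.24, adjusted p = 8.63e-13), Frzb (-5.69, SE 0.29, adjusted p = 2.47e-11), Wif1 (-3.66), Lef1 (-2.71) and Kremen1 (-0.69, adjusted p = 0.0398), whose second set was at or near background in the tooth series. The lens values of Frzb, Wif1 and Sostdc1 were at background, so those sizes rest on levels that have no order. Dkk1 (0.48, interval -0.13 to 1.09) and Axin2 (0.24, interval -0.37 to 0.84) were not called. The 3′ minus 5′ difference of the control probe sets also separated tooth germ from its bodies, in opposite directions for Gapdh (2.82 to 3.13 and 3.84 to 4.08) and Actb (4.78 to 5.05 and 4.22 to 4.47), and its part in the tooth differences was not tested.

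Agreement between probe sets of one gene was poorer in the tooth series. Over 6218 genes with 2 tested sets, the median distance between the differences of the sets was 0.27 for lens at E12.5, 0.47 for tooth germ and 1.06 between the body groups. Where both sets were called, they had opposite signs in 2.32%, 14.2% and 43.6% of genes. The members have 22 probe sets, of which 20 passed the filter, and 8 members have more than 1. Between the body groups, where 63.6% of all genes were called (31.8% higher and 31.8% lower), 3 of the 10 were called higher and 3 lower by their main sets. Body arrays of the 2 series did not overlap for 4 of the 10 and for 65.4% of all genes. For Sfrp1 the 5 sets ran from -3.10 to 0.01 there, for Frzb from -2.61 to 0.10, for Lef1 from -2.17 to -0.58 and for Dkk1 from 0.38 to 1.82, where the second Frzb, Lef1 and Dkk1 sets were at background in 1 of the body groups. In lens at E12.5 all called sets of Sfrp1, Frzb and Lef1 had one sign. The second Frzb and Lef1 sets passed the filter through the lens-series bodies, so their sign there is no separate support. For Dkk1 the main set was not called, and the second was at background in lens and its body.

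**Figure D3:**
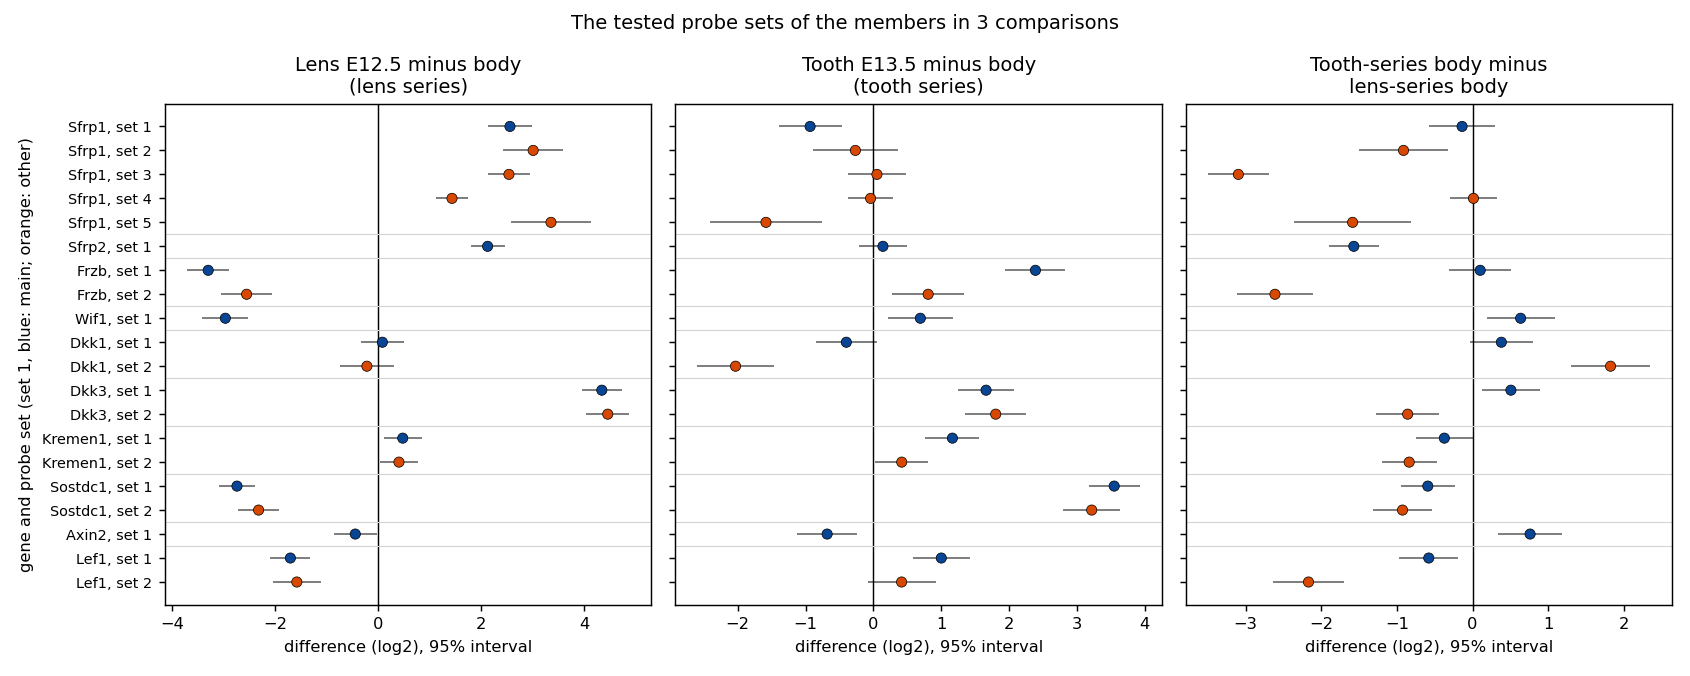
Log2 difference with its 95% interval for each of the 20 tested probe sets, in lens at E12.5, in tooth germ and between the body groups; blue points are the main sets and orange points the other sets. In the left panel the Sfrp1 sets run from 1.44 to 3.36, and in the right panel the Dkk3 sets fall on opposite sides of 0.

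The rest of the pathway was read from a list of 90 other Wnt genes, of which 88 had a probe set and 78 were tested. In lens at E12.5, 12 were called higher and 33 lower than in body, with a median difference of -0.25 against -0.05 over all genes, and 16.6% of all genes called higher and 26.7% lower. Of 15 ligands 2 were higher, Wnt5b (1.87, SE 0.27) and Wnt7b (1.84, SE 0.23), and 6 were lower, led by Wnt5a (-3.45, SE 0.39), a ligand best known for signalling without beta-catenin. Of 18 receptors and co-receptors 3 were higher and 7 lower. The lower ones included the Frizzled receptors Fzd2 (-2.87) and Fzd8 (-2.15) and the Wnt5a receptor Ror2 (-2.76). Its relative Ror1 was above body at the earlier stage E10.5 (1.91), which is not a value for E12.5. R-spondins are secreted agonists that protect the receptors from removal. Rspo2 (-3.82) and Rspo3 (-3.60) were lower in lens, with lens means of 3.74 and 3.86 that are not above background, while Rspo1 was higher (2.24, SE 0.38, adjusted p = 8e-05).

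Among 10 further antagonists 1 was called higher and 6 lower in lens at E12.5. Apcdd1, a membrane-bound inhibitor, was 4.37 below body (-4.37, SE 0.16, adjusted p = 8.03e-14), with means of 5.89 in lens and 10.27 in body. Shisa3 (-2.28) and Shisa2 (-2.0), which retain Frizzled receptors inside the cell, were also lower. Of 16 cytoplasmic genes 1 was higher and 3 lower, of 6 nuclear genes 0 were higher and 3 lower, including the co-repressor Tle1 (-1.49). Response genes were divided, with 3 of 8 higher and 5 lower: the cyclin gene Ccnd2 was 0.83 above body, and Tnfrsf19 (-1.55) and Cd44 (-2.03, with a lens mean of 4.52 that is not above background) were below it.

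**Figure D4:**
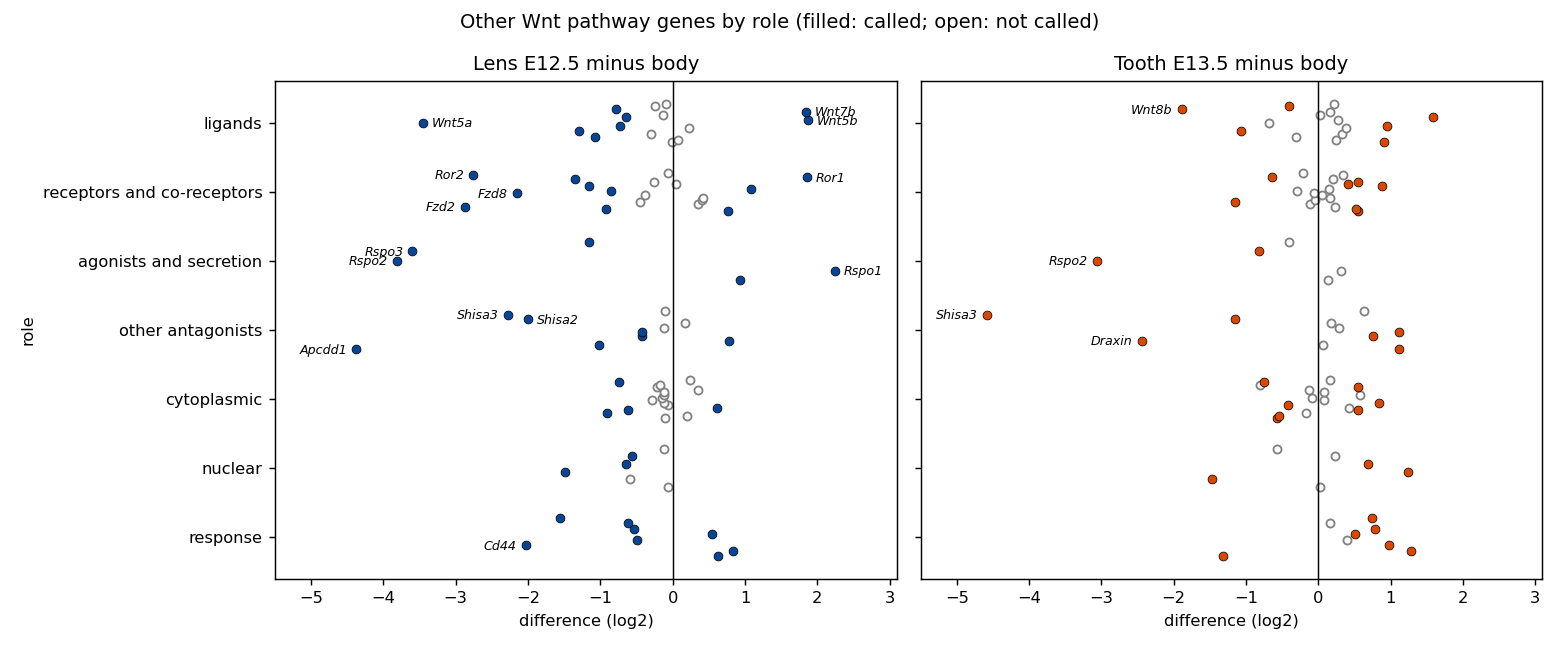
Log2 difference from the body of the same series for the tested genes of the wider Wnt list, by role, in lens at E12.5 (left) and tooth germ (right); filled points were called, open points were not, and called genes beyond 1.8 in size are named. The lens panel holds 33 called points left of 0 and 12 right of it, and the tooth panel 16 and 21.

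Across lens stages, the first step had 3 of the 78 genes rising and 7 falling, the second 1 and 1, and the whole interval from E10.5 to E12.5 had 8 and 11. Over all genes 4.26%, 6.46% and 22.1% were called in these comparisons. Over the whole interval Rspo1 rose by 2.10 (SE 0.41, adjusted p = 0.000825), Wnt7b by 1.84 (adjusted p = 2.33e-05), the secreted antagonist Draxin by 1.24 and the feedback gene Nkd1 by 1.16. Ror2 (-1.35), Fzd2 (-1.16) and Fzd8 (-1.16) fell. Dkk2, a relative of Dkk1, rose by 1.31 to E11.5 (adjusted p = 0.0135) and then fell by 1.29 (adjusted p = 0.0107), with means of 6.70, 8.01 and 6.72. That course did not match Dkk1, which had its highest mean at E10.5. Summed pigment cell markers were also highest at E11.5 (8.36 to 8.68, 9.55 to 9.84 and 8.85 to 8.90 by stage). Those of neural retina, mesenchyme and cartilage were too, while surface ectoderm markers fell at each step and macrophage markers overlapped between stages. The part of these cell types in the Dkk2 course was not tested.

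In tooth germ 21 of the 78 genes were called higher and 16 lower than in body, with 16.6% of all genes called higher and 25.3% lower. The ligand Wnt6 was higher (1.59, SE 0.19, adjusted p = 1.5e-06) and Wnt8b lower (-1.89). Wnt8b (mean 4.73) and Shisa3 (mean 3.96) were not above background in tooth germ. Shisa3 (-4.58, adjusted p = 1.43e-11), Rspo2 (-3.06) and Draxin (-2.44) were lower, as was the TCF family gene Tcf7l2 (-1.47), while Tle1 was higher (1.24). The cyclin genes moved apart, with Ccnd2 1.28 above and Ccnd1 at -1.32. The lens and tooth differences themselves differed for 42 of the 78 genes, 12 on the lens side and 30 on the tooth side, against 19.2% and 20.4% of all genes.

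For each member the 2 genes with the most similar pattern were taken from all tested genes outside the lists by Pearson correlation over the 19 arrays, as a description in which arrays of a group and a series share their source. Sfrp1 was closest to Rbm24 (r = 0.98) and Galnt2 (r = 0.98), and Sfrp2 to Stra6 (r = 0.99) and Tspan15 (r = 0.98). Frzb was closest to Penk (r = 0.98) and Lhx8 (r = 0.98), Wif1 to Ppp1r3b (r = 0.99) and Scara5 (r = 0.98), and Sostdc1 to Slc44a1 (r = 0.98) and Chst11 (r = 0.96). Dkk3 was closest to Igfbp7 (r = 0.97) and Ablim1 (r = 0.96), and Lef1 to Ppic (r = 0.95) and Zfp703 (r = 0.94). The genes with small differences had looser neighbours: Axin2 had Sema4f (r = 0.91) and Cobl (r = 0.91), Dkk1 had Crym (r = 0.89) and Tsen15 (r = 0.88), and Kremen1 had Trpm4 (r = 0.86) and Pigv (r = 0.84). Over the 13 arrays of the lens series alone, these correlations lay between 0.68 (Trpm4 with Kremen1) and 0.98.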

How the data were processed

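Total RNA was hybridised as biotin-labelled cRNA to 19 one-colour Affymetrix mouse arrays. The values deposited by the authors are linear signal intensity per probe set, and the submitters' processing notes name RMA and affy 0.7; whether both series were normalized together is not given in the sources used here. Signals ran from 5.4 to 25043.5, with array medians of 42.5 to 46.5. Of 45101 probe sets 34945 name 1 gene, 932 several and 9160 none, and 64 are controls. Values were taken to log2, and each gene was represented by its set of highest mean. Genes above the median of all values (44.1) on at least 3 arrays were tested, 13320 of 18193.

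A model of 6 group means was fitted with limma 3.58.1 in R 4.3.3 (lmFit, contrasts.fit, eBayes), with Benjamini-Hochberg adjustment over all tested genes at 0.05 and intervals of 95%. The 10 members are given in every comparison. Of the wider list, up to 3 called genes per role and comparison could be named, those with the largest difference whose arrays did not overlap. The members and lists were chosen with earlier results of these data known. A level at or below the no-target level on every array of a group was treated as a bound, taking per array the higher of that level and the probe set's own; for Frzb at E11.5, where 2 of 3 arrays were at or below it, the bound was taken the same way. Alternatives were another filter, no filter, quantile normalization, median centring, an offset of 16 before log2, a trended robust fit, only the groups compared, the replicate number or bacterial control set as a block, fits within each control set, other probe sets and leaving out each array. Same-numbered arrays of lens E11.5 and E12.5 deviated together (correlations of 0.40 to 0.64 over 3 pairs), so a replicate block within these arrays was added after seeing the data; in each other pair of groups at least 1 pair was under 0.1. The labels do not say what the numbers share. The fit was tested on simulated data. Promoter windows are RefSeq's for GRCm38.p6, and no window was matched for 4 members in the table used here. Figures were drawn with matplotlib 3.10.9.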

Additional observations from a re-analysis of the deposited data

Results flagged for a closer look

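In the lens-series bodies, array 3 lay apart from the other 3 for Sostdc1, at 7.12 against 7.60 to 7.68, and for Lef1, at 7.62 against 8.01 to 8.07. Its gap to the nearest array, as a share of the group's range, was 0.86 and 0.854, past Dixon's critical value for 4 samples; chance marks about 1 in 20 groups. The lens difference at E12.5 and the tooth difference differed by limma's test of the difference itself for 8 of the 10 genes, with values of 3.49 for Sfrp1, 1.99 for Sfrp2, -5.69 for Frzb, -3.66 for Wif1, 2.68 for Dkk3, -0.69 for Kremen1, -6.30 for Sostdc1 and -2.71 for Lef1. The tooth and lens arrays are separate series, so tissue and series cannot be told apart in levels, and these values rest on each series' own bodies. The lens levels of Frzb, Wif1 and Sostdc1 at E12.5 were at background, so the sizes for these genes have no order. The Sfrp1 size is that of the main set, and its tooth part depended on the probe set.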

How the results depend on the processing

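Of 57 called differences of the members, 41 kept their call under every alternative of scaling, filter, log scale, model, block, control set and left-out array, 16 lost it in at least 1, and 0 turned sign. Uncalled differences also gained a call in some of these fits. Against body these were Sostdc1 at E10.5 (5 of 18), Axin2 at E12.5 (3 of 18), Kremen1 at E11.5 (2 of 18) and Dkk1 in tooth germ (1 of 15). Others were Dkk1 in the lens minus tooth difference (1 of 22), and Dkk1 and Kremen1 between bodies (2 of 16 each). All these counts leave out other probe sets and the mean of all sets. By those, called differences did turn sign, for Sfrp1 in tooth germ and for Dkk3 and Axin2 between bodies. The 2 members called from E10.5 to E11.5 became 1 with only the groups compared and 1 within the low-control arrays, and 2 to 3 with single arrays left out. The 3 called from E11.5 to E12.5 became 1 with no filter, 0 with only the groups compared (6 at an unadjusted limma p under 0.05) and 0 within the high-control arrays (3 unadjusted), and 1 to 2 with single arrays left out. Within the high-control arrays E11.5 and E12.5 have 1 array each, assumed to vary like the other groups. Over all genes, 568 calls from E10.5 to E11.5 became 56 with only the groups compared, 1473 and 122 within the high- and low-control arrays, 311 without E10.5 array 1 and 207 without E10.5 array 2. The 861 from E11.5 to E12.5 became 139, 443 within the high-control arrays and 442 without E12.5 array 3, and the 2946 from E10.5 to E12.5 became 1568 and 1838 within the control sets. The cause was not tested.

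Signs turned in the following cases. With the mean of all sets of a gene: Axin2 in the lens minus tooth difference (-0.027) and between bodies (-0.14), Dkk1 at E12.5 against body (-0.069), Dkk3 (-0.18) and Frzb (-1.26) between bodies, Frzb (0.14) and Kremen1 (-0.11) from E10.5 to E12.5, and Lef1 from E10.5 to E11.5 (-0.003). With another set: Dkk1 from E10.5 to E11.5 (0.11) and at E12.5 against body (-0.22), Dkk3 (-0.86), Frzb (-2.61) and Sfrp1 (0.012) between bodies, Frzb (0.29) and Kremen1 (-0.27) from E10.5 to E12.5, Lef1 from E10.5 to E11.5 (-0.071), Sfrp1 in tooth germ (0.053) and Sostdc1 at E10.5 against body (0.01). Within the high-control arrays: Axin2 at E11.5 against body (0.082), Dkk3 (0.069) and Wif1 (-0.055) from E10.5 to E11.5, Kremen1 (-0.047) and Wif1 (-0.039) from E10.5 to E12.5, and Wif1 from E11.5 to E12.5 (0.016). Within the low-control arrays: Dkk1 at E12.5 against body (-0.082), Frzb (0.17) and Kremen1 (-0.083) from E10.5 to E12.5, and Lef1 from E10.5 to E11.5 (-0.43). With the control set as a block: Kremen1 (-0.11) and Wif1 (-0.035) from E10.5 to E12.5, and Lef1 from E10.5 to E11.5 (-0.059). With single arrays left out, ranges that crossed 0 were -0.055 to 0.238 for Dkk1 at E12.5 against body, -0.18 to 0.16 for Frzb, -0.18 to 0.11 for Kremen1 and -0.054 to 0.215 for Wif1 from E10.5 to E12.5, -0.30 to 0.03 for Kremen1 and -0.074 to 0.331 for Lef1 from E10.5 to E11.5, -0.02 to 0.20 for Kremen1 and -0.25 to 0.02 for Wif1 from E11.5 to E12.5, and -0.035 to 0.205 for Frzb between bodies.

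Of 21 same-numbered pairs of arrays 8 had a correlation of deviations over 0.1, including all 3 of lens E11.5 with E12.5. With the replicate block within those 6 arrays, added after seeing the data, 1 member was called from E11.5 to E12.5. With the replicate block over all arrays, 2 members were called from E11.5 to E12.5, Dkk1 losing its call (-0.73, adjusted p = 0.0572), 7 in the lens minus tooth difference, Kremen1 losing its call (-0.61, adjusted p = 0.0955), and 5 between bodies, Dkk3 losing its call (0.44, adjusted p = 0.0733). Levels at or below 5.02 limit what can be read of Frzb, Wif1 and late Sostdc1 in lens.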
